A study of Mus musculus with 12 samples.

Results

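The genes described here repair broken DNA or signal that it is broken, and they were followed in mouse mammary fibroblasts that had been damaged with doxorubicin or with hydrogen peroxide. They were chosen by function, with earlier results of these data known, as 38 named genes of the 55487 in the deposited expression table. Of these, 26 act in homologous recombination or in the Fanconi anaemia pathway, and 12 act in end joining, break sensing or break signalling. All 26 and all 12 were present in the table. A gene was tested when it reached 1 CPM (count per 1000000 reads) in at least 3 of the 12 libraries, and 25 of the 26 and 12 of the 12 did so. The exception was Rmi2.

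The cells were a line of primary mammary fibroblasts grown from a mammary fat pad, taken from 1 healthy B6 mouse, so every library comes from 1 line. Doxorubicin, a drug that traps topoisomerase on DNA and breaks it, was given at 100 nM for 24 h, and the cells were lysed on day 7. Hydrogen peroxide, an oxidant, was given at 750 uM for 2 h, followed by 48 h of recovery, in 3 rounds, and these cells were lysed on day 6. The submitters named the resulting states DNA damage induced and oxidative stress induced senescence, a lasting stop of cell division. Water was the vehicle of both treatments, each of which had vehicle libraries of its own, and no agent or genetic change was shared by the groups. Each of the 4 groups had 3 libraries. The vehicle cells were passaged regularly and the treated cells were not described as passaged, so treatment and passaging cannot be told apart in any comparison. The labels do not say that the replicates were separate cultures, and the p-values then measure only the spread between these libraries, which may be technical.

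Homologous recombination copies the lost sequence from the sister chromatid and is therefore used mainly in S and G2 phase, when a sister is present. The Fanconi pathway removes crosslinks that block replication forks, and passes the resulting break to recombination. End joining seals broken ends directly in any phase of the cell cycle, and is the main route for breaks in cells that do not divide. Many recombination and Fanconi genes are known targets of E2F, the transcription factor family that the retinoblastoma protein holds silent in arrested cells.

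Sequencing depth lay between about 17300000 and 37600000 reads per library, estimated from the smallest steps between the values. At that depth a count of 3 reads corresponded to 0.0798 to 0.173 CPM, which covers counting error only. On the first 2 principal components (52.8% and 23.7% of the variance), treated and vehicle libraries were separated by the first. Doxorubicin replicate 1, doxorubicin vehicle replicate 3 and peroxide replicate 2 stood apart from their groups on the second. The counts of members lower after each treatment are also given without these 3 libraries. So is each member whose call changed without them. All 9 fibroblast markers were tested. The 7 epithelial and 5 endothelial markers were not: they summed to 0 to 1.16 CPM and 0.238 to 1.59 CPM per library. Leukocyte markers summed to 14.3 to 19.4 CPM in treated and 2.67 to 9.08 CPM in vehicle libraries, with the pan-leukocyte gene Ptprc near 0 (mean 0.0225 CPM) and only Cd68 and Lyz2 tested. Adipocyte markers summed to 21.96 to 31.4 CPM in treated and 50.1 to 64.7 CPM in vehicle libraries. The part of these markers in the results below was not tested.

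RefSeq gives promoter windows, from 250 bases before to 50 bases after the start, for 20 of the 26 recombination and Fanconi members and for 8 of the 12 end joining and signalling members, on build GRCm38.p6. They were searched on both strands for E2F-type words (TTTCCCGC, TTTGGCGC, TTTCGCGC or TTTGCCGC), for CHR-type words found at genes of late cell cycle (TTTGAA or TTCGAA), and for the CCAAT box (CCAAT). The 200 bases before the start are printed below for 7 members, 5′ to 3′ on the strand of the gene, with E2F-type and CCAAT words in capitals. They were chosen to show several of the directions of change described below: Brca2, Fanca, Brip1 and Xrcc6 were lower after both treatments, Chek2 was lower after doxorubicin alone, Fancg moved in opposite directions, and Trp53bp1 was higher after both. The windows are chr5:150522421-150522620, plus strand (Brca2); chr8:123318577-123318776, minus strand (Fanca); chr11:86201194-86201393, minus strand (Brip1); chr15:82016169-82016368, plus strand (Xrcc6); chr5:110839783-110839982, plus strand (Chek2); chr4:43010302-43010501, minus strand (Fancg); and chr2:121271408-121271607, minus strand (Trp53bp1).
Brca2: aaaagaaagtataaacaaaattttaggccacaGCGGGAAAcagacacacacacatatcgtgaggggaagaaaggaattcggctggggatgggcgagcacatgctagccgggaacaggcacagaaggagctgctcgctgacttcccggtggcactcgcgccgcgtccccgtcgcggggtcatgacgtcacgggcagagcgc
Fanca: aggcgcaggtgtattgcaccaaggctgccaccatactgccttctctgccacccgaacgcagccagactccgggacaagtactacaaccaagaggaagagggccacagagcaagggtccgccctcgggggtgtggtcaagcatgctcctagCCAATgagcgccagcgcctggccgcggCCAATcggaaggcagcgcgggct
Brip1: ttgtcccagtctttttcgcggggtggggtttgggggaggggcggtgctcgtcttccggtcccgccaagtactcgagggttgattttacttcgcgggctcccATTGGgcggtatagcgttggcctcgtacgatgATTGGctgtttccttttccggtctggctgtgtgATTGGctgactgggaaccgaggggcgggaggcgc
Xrcc6: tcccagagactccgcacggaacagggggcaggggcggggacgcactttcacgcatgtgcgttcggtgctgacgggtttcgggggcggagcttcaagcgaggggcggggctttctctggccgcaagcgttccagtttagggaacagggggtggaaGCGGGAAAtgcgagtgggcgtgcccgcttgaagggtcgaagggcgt
Chek2: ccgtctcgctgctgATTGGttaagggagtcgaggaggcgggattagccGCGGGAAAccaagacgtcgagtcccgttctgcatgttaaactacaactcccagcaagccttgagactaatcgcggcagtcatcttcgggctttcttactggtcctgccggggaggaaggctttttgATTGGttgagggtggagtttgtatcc
Fancg: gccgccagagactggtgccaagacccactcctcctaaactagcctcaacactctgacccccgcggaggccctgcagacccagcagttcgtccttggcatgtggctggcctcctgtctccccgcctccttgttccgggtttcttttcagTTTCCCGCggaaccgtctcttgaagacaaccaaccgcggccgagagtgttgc
Trp53bp1: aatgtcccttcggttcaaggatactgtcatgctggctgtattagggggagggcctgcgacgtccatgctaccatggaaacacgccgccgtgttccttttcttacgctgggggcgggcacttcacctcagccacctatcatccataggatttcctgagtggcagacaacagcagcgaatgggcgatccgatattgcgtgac

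The windows of Brca2, Xrcc6, Chek2 and Fancg each held 1 E2F-type word, all with the same letters, TTTCCCGC, read on the gene's strand in Fancg and on the opposite strand in the other 3. Fanca held 2 CCAAT boxes and Brip1 held 3 within the 200 bases shown. Chek2 held 2 beside its E2F-type word, and no letters were shared between the words. The window of Trp53bp1 held neither word. Over the full window, E2F-type words were found in 5 of the 20 recombination and Fanconi members (25%; Wilson 95% interval 11.2 to 46.9%) and in 2 of the 8 end joining and signalling members (25%; 7.15 to 59.1%), against 4.72% of all tested genes and 2.61% of all genes with a window. CCAAT boxes were found in 12 of the 20 (60%) and 4 of the 8 (50%), against 43.8% of all tested genes. CHR-type words were found in 2 of the 20 (10%) and 1 of the 8 (12.5%), against 16.7% of all tested genes and 15 of 19 mitosis genes (78.9%). In the 250 bases before the start alone, E2F-type words were found in 3 of the 20 (15%) and 2 of the 8 (25%). The share over all tested genes was 3.93% there. E2F-type words were thus present in members of both classes, Fancg included, whose direction differed between the treatments.

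Both treatments were followed by lower levels of nearly all recombination and Fanconi members, from the mediators that load the recombinase to the Fanconi clamp. After doxorubicin, 23 of 25 tested recombination and Fanconi members were lower and 1, Fancc, was higher, where 27.8% of all 13280 tested genes were lower and 22.1% higher at an adjusted p below 0.05. The median log2 fold change of these 25 was -1.23, beside -0.03 for all tested genes. Of the 25, 17 were lower by at least 1 log2 unit, against 3.98% of all tested genes, and in 22 the treated libraries all lay below the vehicle libraries, against 33.6% of all tested genes. After peroxide, again 23 of 25 were lower and 1, Fancg, was higher, where 23.4% of all tested genes were lower and 27.3% higher. The median was -1.07 beside -0.01 for all tested genes, 14 of the 25 were lower by at least 1 log2 unit against 6.59%, and in 23 the groups did not overlap, against 29.3%. In bulk libraries fewer cells that make a transcript and less of it per cell cannot be told apart.

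Among the end joining and signalling members, genes were found in every direction. After doxorubicin 7 of 12 were lower and 1, Trp53bp1, was higher, and after peroxide the counts were again 7 and 1, with Trp53bp1 the one that was higher. Over all tested genes 27.8% were lower and 22.1% higher after doxorubicin, and 23.4% and 27.3% after peroxide, so the count of higher members was below the share over all genes in both. Their median log2 fold changes were -0.46 and -0.44, and 1 member in each treatment was lower by at least 1 log2 unit: Chek2 after doxorubicin, against 3.98% of all tested genes, and Parp1 after peroxide, against 6.59%. At 1 of 12, these counts were near the share over all genes. The gap between the class medians, end joining minus recombination, was 0.78 after doxorubicin (SD 0.20 over the 3 treated libraries, each set against the vehicle mean) and 0.63 after peroxide (SD 0.08). These SDs leave out the spread of the vehicle libraries. Taken singly, the treated libraries gave gaps of 0.59, 0.81 and 0.99 after doxorubicin and 0.64, 0.66 and 0.78 after peroxide. The gap was a description and was given no test. Across both classes, 27 of 37 tested members were lower after both treatments (73.0%): 22 of 25 recombination and Fanconi members (88%) and 5 of 12 end joining and signalling members (41.7%), against 13.5% of all tested genes. The 2 effects share no library, and across the 37 members their Pearson r was 0.73, beside 0.49 over all tested genes. It was 0.74 over the 25 recombination and Fanconi members and 0.37 over the 12 end joining and signalling members, the latter below the value over all genes. Without the 3 libraries that stood apart, 22 and 23 of the 25 were lower after doxorubicin and peroxide, and 6 and 6 of the 12.

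**Figure D1:**
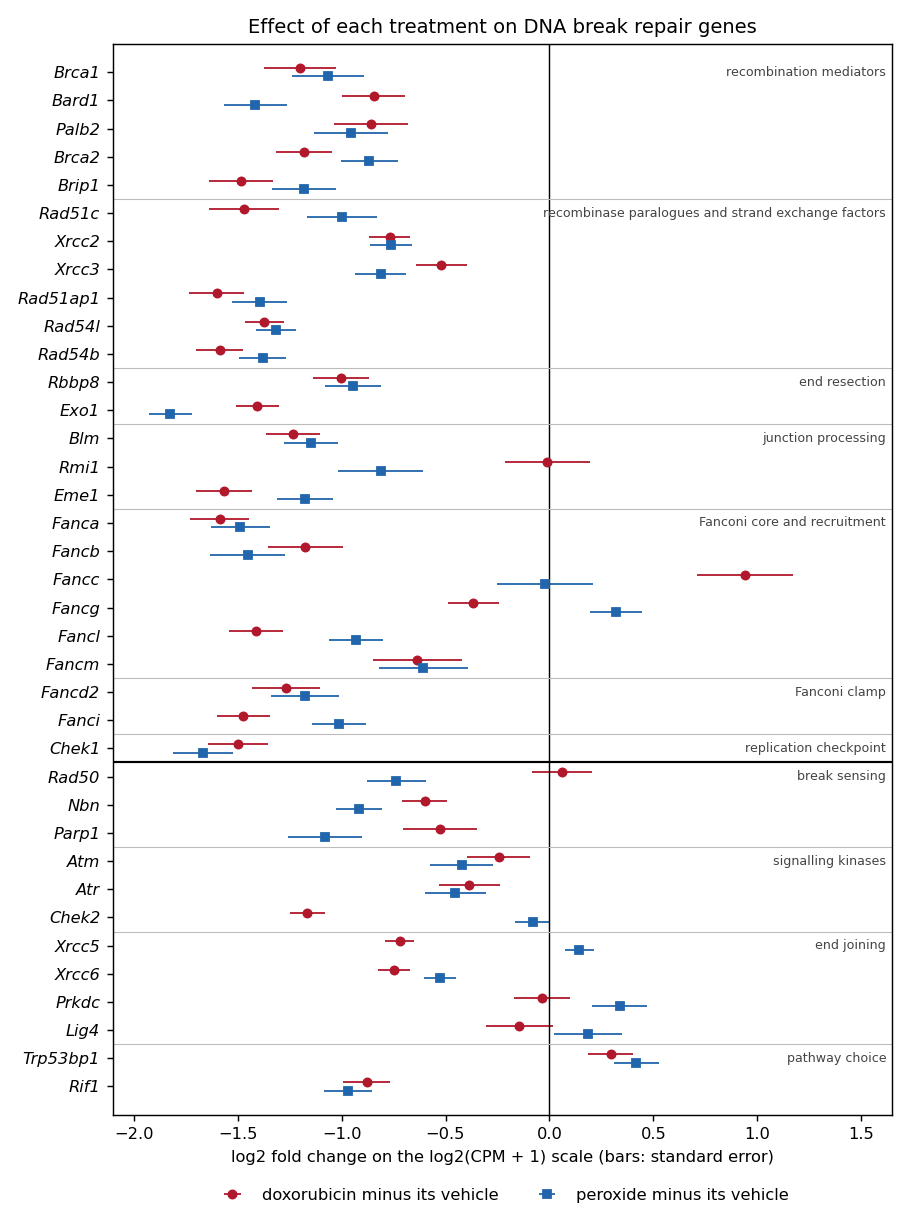
Log2 fold change (treated minus its own vehicle, on log2(CPM + 1)) of each of the 37 tested members, grouped by role, with a red circle for doxorubicin, a blue square for peroxide and bars of 1 SE from a fit on 3 libraries per group. Most recombination and Fanconi members lie left of 0 for both treatments. For at least 1 treatment, Fancc, Fancg, Rmi1, Rad50, Chek2, Xrcc5, Prkdc, Lig4 and Trp53bp1 lie near or right of 0.

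The recombination mediators fell after both treatments, all 5 of 5. Brca1 works with its partner Bard1 as a ubiquitin ligase that promotes end resection, Palb2 bridges Brca1 to Brca2, Brca2 loads the strand exchange recombinase onto single-stranded DNA, and Brip1 is a helicase that binds Brca1. Brca1 (ENSMUSG00000017146, chr11:101488764-101551955 on mm10) stood at 10.9, 13.4 and 13.6 CPM in the doxorubicin vehicle libraries and at 4.84, 6.14 and 3.91 CPM after doxorubicin. It stood at 17.9, 20.4 and 19.1 CPM in the peroxide vehicle libraries and at 8.93, 6.67 and 10.7 CPM after peroxide. All treated libraries lay below their vehicle libraries, and the log2 fold changes were -1.20 ± 0.17 (SE, n = 3 per group; adjusted p = 0.000181, limma) and -1.07 ± 0.17 (adjusted p = 0.000398, limma).

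Brca2 fell to 0.357 of its vehicle mean after doxorubicin (2.65, 2.42 and 1.87 CPM against 5.87, 6.88 and 6.72) and to 0.50005 after peroxide (5.28, 5.16 and 5.14 against 12.3, 8.81 and 9.998). Neither pair of groups overlapped. Bard1, the lowest of the 5, stood at 1.87, 2.69 and 1.95 and 4.72, 4.34 and 4.85 CPM in the vehicle groups and at 0.931, 0.532 and 0.822 and 0.767, 1.36 and 1.26 CPM in the treated groups. At such levels the pseudocount of 1 shrinks the fold change: the log2 fold change of Bard1 after doxorubicin was -0.85 (adjusted p = 0.000779, limma), and it was -1.41 with a pseudocount of 0.1. The log2 fold changes of the 5 mediators ranged from -1.48 (Brip1) to -0.85 (Bard1) after doxorubicin and from -1.41 (Bard1) to -0.87 (Brca2) after peroxide.

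The factors that form and remodel the recombinase filament fell after both treatments as well, all 6 of 6. Rad51c, Xrcc2 and Xrcc3 are paralogues of the recombinase that stabilise its filament, Rad51ap1 stimulates pairing with the template, and Rad54l and Rad54b are translocases that drive strand invasion. Rad51ap1 (ENSMUSG00000030346, chr6:126923050-126939587) had 40.6, 50.1 and 45.1 CPM in the doxorubicin vehicle libraries and 17.9, 12.7 and 12.6 after doxorubicin. It had 67.8, 65.1 and 70.7 CPM in the peroxide vehicle libraries and 24.2, 27.9 and 23.7 after peroxide. The 6 treated libraries were all below the 6 vehicle libraries. Its log2 fold change was -1.60 ± 0.13 after doxorubicin (SE; adjusted p = 2.37e-06, limma) and -1.39 ± 0.13 after peroxide (adjusted p = 6.49e-06, limma). On log2(CPM + 1) its fall after doxorubicin was the steepest among the tested members, but by the ratio of means, which has no pseudocount, Rad51c (0.285), Eme1 (0.293), Fanca (0.302) and Rad54b (0.304) fell to a smaller fraction of their vehicle means than Rad51ap1 (0.318).

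Rad54b (ENSMUSG00000078773, chr4:11558922-11615805) had 19.3, 23.4 and 23.6 CPM in the doxorubicin vehicle libraries against 7.63, 5.66 and 6.81 after doxorubicin, a log2 fold change of -1.59 ± 0.11 (adjusted p = 7.27e-07, limma). Against its peroxide vehicle it went from 35.04, 33.1 and 31.7 to 12.4, 12.01 and 12.1 CPM (-1.38; adjusted p = 2.03e-06, limma). Rad54b shares 35.9% of its exonic bases and 34.5% of its 50-base windows with Fsbp on the same strand, so its counts are uncertain to that extent. The mean of Fsbp was 0.871 CPM in the doxorubicin vehicle group against 22.1 CPM for Rad54b. Rad54l fell to 0.367 and 0.389 of its vehicle means after doxorubicin and peroxide, with the smallest adjusted p of the 6 after both (5.91e-07 and 7.86e-07, limma). The shallowest falls were those of Xrcc3 after doxorubicin (-0.52; 15.5, 12.9 and 14.1 CPM to 8.52, 11.5 and 8.88) and of Xrcc2 after peroxide (-0.76; 28.9, 30.8 and 30.3 CPM to 16.7, 17.1 and 17.9). Even for these the groups did not overlap.

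End resection cuts back the broken end to expose the single strand on which recombination starts, and Rbbp8 begins it while the exonuclease Exo1 extends it. Exo1 (ENSMUSG00000039748, chr1:175880581-175913489) was at 33.6, 36.3 and 33.2 CPM in the peroxide vehicle libraries and at 7.803, 9.67 and 9.58 after peroxide (-1.82 ± 0.10; adjusted p = 1.43e-07, limma). On log2(CPM + 1) this was the deepest fall of any tested member in either treatment. By the ratio of means Bard1 fell further after peroxide, to 0.244 of its vehicle mean against 0.263 for Exo1. In the doxorubicin experiment it went from 15.1, 14.7 and 17.4 to 5.45, 5.398 and 5.08 CPM (-1.40 ± 0.10; adjusted p = 1.05e-06, limma). The doxorubicin vehicle libraries were thus already below the peroxide vehicle libraries, and the treated groups of the 2 experiments lay closer to each other than their vehicles did. Rbbp8 stood at 26.9 ± 4.07 CPM (SD, n = 3) in the doxorubicin vehicle group and 12.9 ± 0.512 after doxorubicin, and at 33.6 ± 1.29 and 17.2 ± 3.41 in the peroxide experiment. It fell in both (-1.002 and -0.94).

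Joint molecules left by recombination are dissolved by the helicase Blm with its partners Rmi1 and Rmi2, or cut by a nuclease of which Eme1 is a subunit. Eme1 (ENSMUSG00000039055, chr11:94644996-94653964) had 13.5, 14.2 and 16.5 CPM in the doxorubicin vehicle libraries and 4.02, 3.89 and 5.02 after doxorubicin (-1.57 ± 0.13; adjusted p = 3.17e-06, limma). It had 23.1, 23.4 and 22.8 CPM in the peroxide vehicle libraries and 8.54, 11.9 and 8.93 after peroxide (-1.17; adjusted p = 2.78e-05, limma). Blm fell after both treatments (-1.23 and -1.15), to 0.369 and 0.421 of its vehicle means. Rmi1 differed from its partner: after doxorubicin the libraries overlapped (15.6, 18.9 and 21.5 CPM against 20.1, 21.8 and 14.7; -0.01, adjusted p = 0.972, limma), while after peroxide it fell from 31.1, 23.1 and 22.0001 to 13.5, 10.9 and 18.05 CPM (-0.81; adjusted p = 0.00667, limma). The difference of those effects, 0.80, missed the threshold (adjusted p = 0.0534, limma). Of the 50-base windows of Rmi1, 23.8% recur in Gm20775, which had a mean of at most 0.1004 CPM in any group. Exons of Rmi1 also overlap Hnrnpk on the opposite strand over 5.02% of their bases. Hnrnpk, at a mean of 1401 CPM in the doxorubicin vehicle group, fell after both treatments (-0.56 and -0.44). Its part in the values of Rmi1 was not tested. Rmi2 was not tested and lay between 0.1595 and 1.39 CPM in the 12 libraries; its lowest value compares with 0.0798 CPM for 3 reads in the same library.

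The Fanconi core complex, with Fanca, Fancb, Fancc, Fancg and the ubiquitin ligase subunit Fancl, is recruited to stalled forks by Fancm and marks the Fancd2 and Fanci clamp with ubiquitin. This group of 6 held members with opposite directions: 5 fell and 1 rose after doxorubicin, and 4 fell and 1 rose after peroxide. Fanca (ENSMUSG00000032815, chr8:123268300-123318576) had 18.3, 17.9 and 21.5 CPM in the doxorubicin vehicle libraries and 7.29, 5.43 and 4.699 after doxorubicin (-1.59 ± 0.14; adjusted p = 4.26e-06, limma). In the peroxide experiment it went from 26.6, 30.5 and 32.3 to 9.598, 9.62 and 10.7 CPM (-1.49 ± 0.14; adjusted p = 6.52e-06, limma). On log2(CPM + 1), Fanca was the only gene among the 4 steepest falls of its class in both treatments. Fancb (ENSMUSG00000047757, chrX:164980592-164997272) fell from 17.6, 15.5 and 17.97 to 5.86, 5.47 and 5.42 CPM after peroxide (-1.45 ± 0.18; adjusted p = 4.91e-05, limma). After doxorubicin it stood at 2.003, 3.32 and 4.45 against 8.78, 8.57 and 7.69 CPM (-1.17; adjusted p = 0.000262, limma).

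Fancc (ENSMUSG00000021461, chr13:63285043-63497278) rose after doxorubicin, from 8.68, 5.88 and 4.26 to 11.6, 13.6 and 12.6 CPM (0.94 ± 0.23; adjusted p = 0.00588, limma). After peroxide its libraries overlapped, at 9.83, 8.43 and 13.2 CPM against 13.6, 9.86 and 8.61 (-0.02; adjusted p = 0.949, limma). It was the only recombination or Fanconi member with a higher level after doxorubicin. Its exons overlap, over 18.6% of their bases, the gene 2010111I01Rik on the opposite strand, which rose after doxorubicin (0.81; adjusted p = 2.91e-05, limma) and after peroxide (0.67; adjusted p = 0.000115, limma), and whether the counting used strand is not given in the sources used here. What part that overlap had in the values of Fancc was not tested.

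Fancg (ENSMUSG00000028453, chr4:43002343-43010506) moved by small amounts in opposite directions. It had 12.2, 12.4 and 12.1 CPM in the doxorubicin vehicle libraries and 8.94, 7.98 and 11.03 after doxorubicin (-0.37 ± 0.12; adjusted p = 0.0296, limma), and 8.24, 9.72 and 10.2 CPM in the peroxide vehicle libraries and 11.5, 11.3 and 13.1 after peroxide (0.32 ± 0.12; adjusted p = 0.0497, limma). Neither pair of groups overlapped, but both calls were close to the threshold. The fall after doxorubicin lost its call when any of doxorubicin replicates 1 and 2 or the 3 doxorubicin vehicle replicates was left out (adjusted p up to 0.112), and with array weights it was -0.21 (adjusted p = 0.0859, limma). The rise after peroxide lost it in 9 of the 12 leave-one-out fits, with adjusted p up to 0.179. The 3 fits in which it kept the call were those without doxorubicin replicate 2, doxorubicin replicate 3 or peroxide vehicle replicate 3. Without the 3 libraries that stood apart neither call held: the effects of Fancg were -0.35 (adjusted p = 0.0928, limma) and 0.36 (adjusted p = 0.0649, limma).

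Fancl fell after both treatments (-1.41 and -0.93), from 21.6 ± 1.55 to 7.501 ± 0.814 CPM (SD, n = 3) after doxorubicin and from 20.3 ± 3.57 to 10.1 ± 0.871 after peroxide. Exons of Fancl overlap Vrk2 on the opposite strand over 13.7% of their bases. Vrk2, at a mean of 23.4 CPM in the doxorubicin vehicle group, fell as well (-0.67 and -0.68), and its part in the values of Fancl was not tested. Fancm also passed the threshold in both (-0.64, adjusted p = 0.028, and -0.61, adjusted p = 0.0338, limma). Its doxorubicin libraries (4.56, 2.39 and 1.9002 CPM) overlapped their vehicle (5.18, 4.33 and 5.23 CPM), because replicate 1 lay among the vehicle values. The doxorubicin call was lost without doxorubicin replicate 2 or 3 or doxorubicin vehicle replicate 1 or 3 (adjusted p up to 0.116), and the peroxide call without peroxide replicate 1 or 3 or any 1 peroxide vehicle replicate (adjusted p up to 0.113). The clamp subunits fell together: Fancd2 to 0.389 and 0.425 of its vehicle means after doxorubicin and peroxide, and Fanci to 0.333 and 0.479. For both subunits and both treatments the groups did not overlap.

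Opposite-strand genes also overlap more than 10% of the exonic bases of 4 other members whose falls are given above: Lrrc41 for Rad54l (15.4%), Zfp276 for Fanca (10.5%), Polg for Fanci (15.95%), and Lrrc59 and Mrpl27 for Eme1 (10.7%). Lrrc41 and Zfp276 did not pass the test after doxorubicin (0.14 and 0.12), where Rad54l and Fanca fell. After peroxide Lrrc41 rose (0.58) and Zfp276 fell (-0.37). Polg fell after peroxide alone (-0.60), Lrrc59 fell after both treatments (-0.30 and -0.51), and Mrpl27 fell after doxorubicin (-0.31). Their part in the values of these members was not tested.

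Break signalling splits at the kinases Atm, which answers to broken ends and passes the signal to Chek2, and Atr, which answers to single-stranded DNA at stalled forks and passes it to Chek1. Chek1 (ENSMUSG00000032113, chr9:36708482-36727065), counted with the recombination class, fell after both treatments, from 20.5, 19.5 and 16.5 to 7.17, 4.81 and 6.15 CPM after doxorubicin (-1.50 ± 0.14; adjusted p = 7.98e-06, limma). After peroxide it went from 31.2, 35.4 and 34.2 to 10.2, 8.43 and 11.2 CPM (-1.67 ± 0.14; adjusted p = 3.13e-06, limma). Both treated groups lay below both vehicle groups.

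Chek2 (ENSMUSG00000029521, chr5:110839979-110874145) fell after doxorubicin, from 39.9, 41.3 and 48.5 to 18.3, 18.6 and 19.1 CPM (-1.17 ± 0.08; adjusted p = 7.72e-07, limma). After peroxide it was at 36.98, 33.9 and 35.3 CPM against 38.8, 35.9 and 37.6 in its vehicle (-0.08 ± 0.08; adjusted p = 0.455, limma), and those groups overlapped. The 3 doxorubicin libraries lay below all libraries of the other groups, the lowest of which was at 33.9 CPM. The upstream kinases moved less. Atm stood at 13.3, 8.695 and 11.7 CPM after doxorubicin against 12.7, 13.1 and 14.1 (-0.24; adjusted p = 0.201, limma), and fell from 14.95, 15.1 and 15.3 to 10.8, 9.24 and 13.3 CPM after peroxide (-0.42; adjusted p = 0.0374, limma). The call for Atm was lost in 6 of 12 leave-one-out fits (adjusted p up to 0.128): those without peroxide replicate 1 or 2, without any 1 peroxide vehicle replicate, and without doxorubicin vehicle replicate 2. Without the 3 libraries that stood apart it was lost as well (-0.31; adjusted p = 0.0831, limma).

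Atr fell by little in both, from 11.8, 10.6 and 10.7 to 6.503, 9.66 and 8.7003 CPM after doxorubicin (-0.39; adjusted p = 0.0471, limma) and from 18.4, 14.6 and 14.5 to 12.6, 10.02 and 11.2 after peroxide (-0.45; adjusted p = 0.0235, limma). The doxorubicin call was lost in 9 of 12 leave-one-out fits, and without doxorubicin replicate 1 the log2 fold change was -0.24 (adjusted p = 0.163, limma). It held without doxorubicin replicate 2, peroxide replicate 2 or peroxide vehicle replicate 1. The doxorubicin effect was -0.26 without the 3 libraries that stood apart (adjusted p = 0.153, limma). The peroxide call was lost without peroxide replicate 2 or peroxide vehicle replicate 1 (adjusted p up to 0.0988). The upstream kinase genes thus had smaller effects than Chek1 in both treatments and than Chek2 after doxorubicin, and these differences between genes were not tested.

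Broken ends are recognised by a complex that holds Rad50 and Nbn, and strand breaks of all kinds by Parp1. Nbn (ENSMUSG00000028224, chr4:15957925-15992589) fell from 16.03, 15.7 and 14.5 to 9.73, 9.12 and 10.6 CPM after doxorubicin (-0.60; adjusted p = 0.000901, limma) and from 19.8, 21.1 and 16.8 to 9.47, 8.99 and 10.6 after peroxide (-0.92 ± 0.11; adjusted p = 3.8e-05, limma). Rad50 (ENSMUSG00000020380, chr11:53649519-53707319), the other gene of that complex among the members, was unlike Nbn after doxorubicin. It stood at 32.2, 38.2 and 45.1 CPM against 35.8, 41.3 and 32.8 in the vehicle, with overlapping groups (0.06 ± 0.14; adjusted p = 0.741, limma). After peroxide it fell from 66.4, 58.4 and 53.6 to 32.3, 32.6 and 41.3 CPM (-0.74 ± 0.14; adjusted p = 0.00131, limma). The 3 groups other than the peroxide vehicle had overlapping Rad50 levels, and the peroxide vehicle stood above them.

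Parp1 (ENSMUSG00000026496, chr1:180568924-180601254) fell after peroxide from 93.1, 91.6 and 90.97 to 49.5, 32.9 and 48.5 CPM (-1.08 ± 0.18; adjusted p = 0.000423, limma). After doxorubicin it stood at 39.8, 42.3 and 47.2 CPM against 73.02, 70.6 and 46.99 in the vehicle (-0.53 ± 0.18; adjusted p = 0.0295, limma). The third vehicle library, at 46.99 CPM, lay just below the highest treated one and is among the 3 libraries that stood apart, as is the lowest peroxide library. Without those 3 libraries the log2 fold changes of Parp1 were -0.67 (adjusted p = 4e-05, limma) and -0.89 (adjusted p = 2.27e-06, limma). The doxorubicin call was lost without doxorubicin replicate 1 or 2 or doxorubicin vehicle replicate 1 or 2 (adjusted p up to 0.109).

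End joining proper starts when Ku, formed by Xrcc5 and Xrcc6, threads onto the broken end; Prkdc is the kinase that Ku recruits, and Lig4 is the ligase that closes the break. After doxorubicin both Ku genes fell and Prkdc and Lig4 did not pass the test. Xrcc6 (ENSMUSG00000022471, chr15:81987835-82040085) had 74.6, 71.1 and 75.5 CPM in the doxorubicin vehicle libraries and 44.8, 41.8 and 43.8 after doxorubicin (-0.75 ± 0.08; adjusted p = 1.35e-05, limma). It fell after peroxide too, from 89.1, 89.7 and 93.3 to 58.9, 70.5 and 59.1 CPM (-0.53; adjusted p = 0.000179, limma). Its partner Xrcc5 (ENSMUSG00000026187, chr1:72307421-72394952) had 44.1, 47.7 and 44.6 CPM in the doxorubicin vehicle libraries and 29.1, 25.8 and 26.8 after doxorubicin (-0.72 ± 0.07; adjusted p = 8.85e-06, limma). After peroxide all 3 libraries lay above their vehicle, 36.7, 37.97 and 39.2 against 33.9, 34.1 and 34.8 CPM, but the difference missed the threshold (0.14 ± 0.07; adjusted p = 0.112, limma). The subunits of 1 protein complex thus had effects of the same sign after doxorubicin and of opposite sign after peroxide.

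Prkdc, whose level per length was the second lowest among the members, stood at 6.19, 6.196 and 5.13 CPM after doxorubicin against 5.38, 6.38 and 6.26 (-0.04; adjusted p = 0.842, limma). After peroxide it stood at 9.16, 6.64 and 8.18 against 5.91, 5.57 and 6.76 CPM (0.34; adjusted p = 0.0531, limma), and it passed the threshold in that direction without the 3 libraries that stood apart (0.45; adjusted p = 0.0218, limma). Leaving out peroxide replicate 2 alone gave the same value (0.45; adjusted p = 0.0169, limma), and leaving out peroxide vehicle replicate 3 gave 0.41 (adjusted p = 0.0469, limma). Lig4 stood at 8.38, 8.91 and 11.2 against 8.78, 10.5 and 12.7 CPM after doxorubicin and at 12.7, 9.298 and 12.8 against 10.1, 10.9 and 9.07 CPM after peroxide, with overlapping groups in both (-0.14 and 0.19).

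The choice between resection and end joining is set by Trp53bp1, which shields broken ends from resection, and by Rif1, which acts with it. These genes moved apart in both treatments. Trp53bp1 (ENSMUSG00000043909, chr2:121193281-121271407) rose from 19.7, 18.9 and 19.8 to 28.1, 24.6 and 26.4 CPM after peroxide (0.42 ± 0.11; adjusted p = 0.00792, limma). After doxorubicin it went from 17.7, 14.1 and 17.5 to 21.1, 17.9 and 22.1 CPM (0.29 ± 0.11; adjusted p = 0.0422, limma). Rif1 (ENSMUSG00000036202, chr2:52072832-52122383) fell from 11.7, 11.9 and 11.03 to 5.87, 5.48 and 6.15 CPM after doxorubicin (-0.88 ± 0.11; adjusted p = 7.97e-05, limma) and from 19.8, 16.4 and 16.9 to 9.47, 7.29 and 8.93 after peroxide (-0.97 ± 0.11; adjusted p = 3.51e-05, limma). For both genes and both treatments the treated and vehicle libraries did not overlap.

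The rise of Trp53bp1 after peroxide kept its call in every leave-one-out fit. Its rise after doxorubicin lost it in 8 of the 12, with adjusted p up to 0.167 and a log2 fold change of 0.20 without doxorubicin vehicle replicate 2. It held without doxorubicin replicate 2, doxorubicin vehicle replicate 1 or 3, or peroxide replicate 2. The rise after doxorubicin was 0.31 without the 3 libraries that stood apart (adjusted p = 0.0679, limma). Exons of Trp53bp1 overlap Tubgcp4 on the opposite strand over 15.04% of their bases. Tubgcp4 fell after both treatments (-0.55 and -0.38), the direction opposite to that of Trp53bp1. Of the 37 tested members, Trp53bp1 was the only one higher after both treatments.

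**Figure D2:**
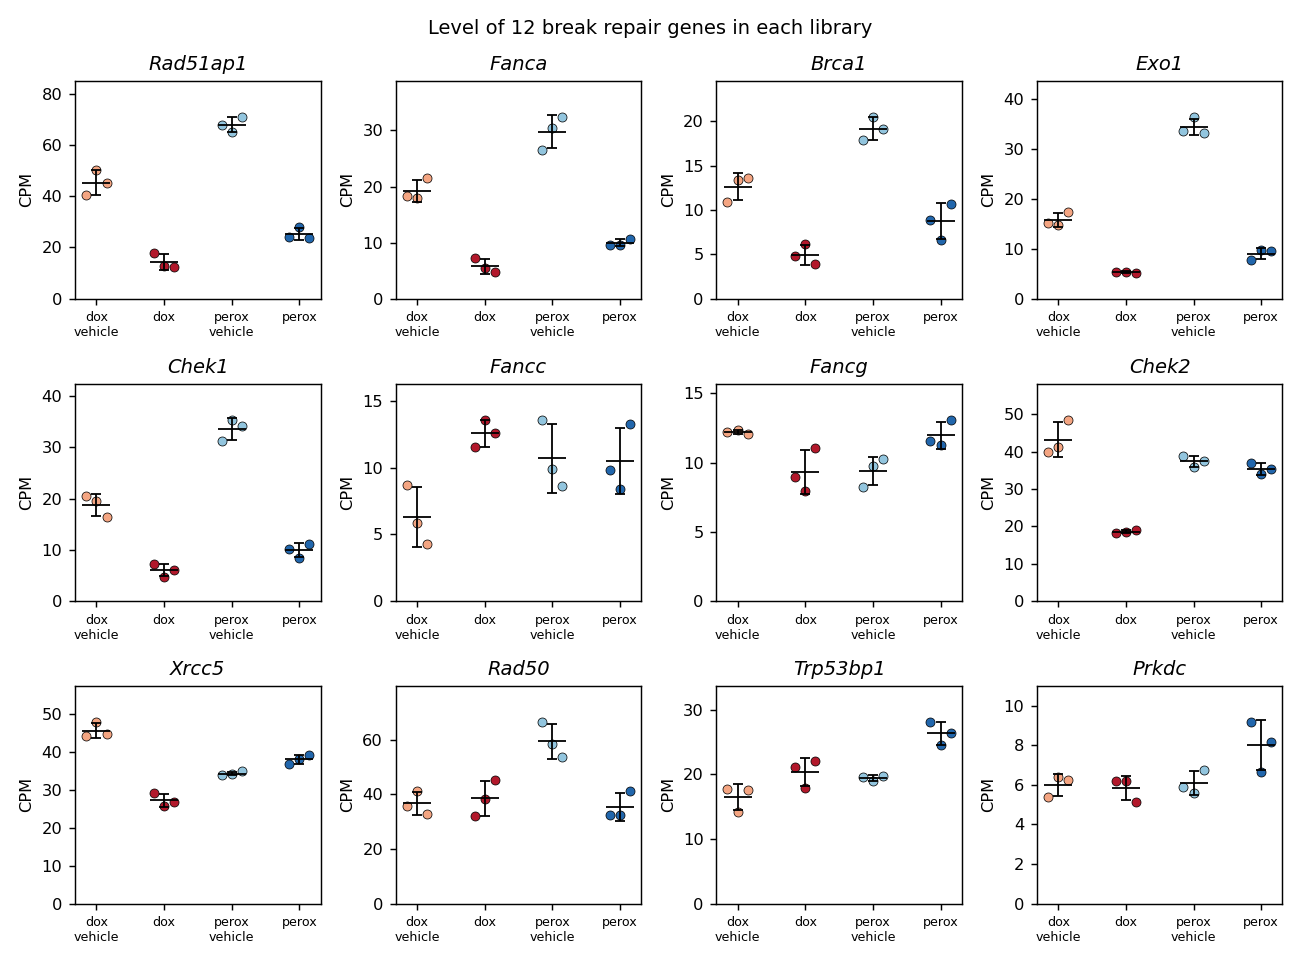
CPM in each of the 12 libraries for 12 members that show the different patterns, with 1 point per library, a line at the group mean and bars of 1 SD (n = 3 per group). Recombination genes such as Rad51ap1 and Exo1 are lower in both treated groups than in their vehicles, Chek2 and Xrcc5 are low in the doxorubicin group alone, Rad50 is high in the peroxide vehicle alone, and Trp53bp1 is higher in both treated groups.

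Whether a member answered differently to the 2 treatments was tested directly, as the doxorubicin effect minus the peroxide effect. The difference passed the threshold in 3 of 25 recombination and Fanconi members and in 3 of 12 end joining and signalling members, against 33.6% of all tested genes in either direction. Neither class thus held a larger share of such genes than the tested genes did. The largest was that of Chek2, at -1.09 ± 0.12 (adjusted p = 0.000164, limma), followed among negative differences by Xrcc5 at -0.86 ± 0.10 (adjusted p = 0.000221, limma) and Fancg at -0.69 ± 0.18 (adjusted p = 0.0136, limma). For these 3 the doxorubicin effect was the lower of the 2. The differences of Fancc, 0.96 ± 0.33 (adjusted p = 0.0431, limma), Rad50, 0.80 ± 0.20 (adjusted p = 0.0133, limma), and Exo1, 0.42 ± 0.15 (adjusted p = 0.0494, limma), had the opposite sign. The differences of Chek2, Xrcc5, Fancg and Rad50 kept their calls in every leave-one-out fit. Those of Exo1 and Fancc lost them in 9 and 8 of the 12 fits, with adjusted p up to 0.109 and 0.1. Exo1 held without doxorubicin vehicle replicate 3, peroxide replicate 2 or peroxide replicate 3, and Fancc without doxorubicin replicate 1, doxorubicin vehicle replicate 1, peroxide replicate 3 or peroxide vehicle replicate 3. Without the 3 libraries that stood apart the difference of Fancc was 0.67 (adjusted p = 0.106, limma), and that of Fanci, not called with all libraries, was -0.60 (adjusted p = 0.0136, limma).

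Each effect is measured against its own vehicle, and the vehicle groups themselves differed in the members. Day 7 doxorubicin vehicle cells had lower levels than day 6 peroxide vehicle cells in 19 of 25 recombination and Fanconi members and higher in 0, where 12.9% of all tested genes were lower and 15.1% higher. The median log2 difference, day 7 minus day 6, was -0.59, beside -0.02 for all tested genes. Among the 12 end joining and signalling members 5 were lower and 1, Xrcc5, was higher, with a median of -0.27. The 24 S phase and 24 mitosis genes described below differed likewise between the vehicles. Of these, 22 and 20 were lower on day 7 and 0 and 0 higher (medians -0.71 and -0.59). The vehicle difference was thus not particular to the repair genes. In 21 of the 25 and 8 of the 12 the day 7 vehicle libraries all lay below the day 6 ones, against 26.3% of all tested genes. Fanci, not called between the vehicles with all libraries, was lower without the 3 libraries that stood apart (-0.40; adjusted p = 0.0169, limma). Day, treatment scheme and passaging cannot be told apart in this comparison.

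For 4 of the 6 members whose treatment effects differed, the vehicle groups differed as well. Both comparisons use the same vehicle libraries, and a vehicle difference enters the difference of effects with the opposite sign. The 2 are therefore not independent, and the share over all genes was not counted. Exo1 was lower in the day 7 vehicle by -1.08 (adjusted p = 3.92e-05, limma), Rad50 by -0.68 (adjusted p = 0.00487, limma) and Fancc by -0.71 (adjusted p = 0.0412, limma), and Xrcc5 was higher by 0.40 (adjusted p = 0.00178, limma). The vehicle libraries of Fancc overlapped, and its call was lost in 7 of 12 leave-one-out fits (adjusted p up to 0.158) and without the 3 libraries that stood apart (-0.49; adjusted p = 0.0935, limma). It held without doxorubicin replicate 1, doxorubicin vehicle replicate 1, peroxide replicate 2 or 3, or peroxide vehicle replicate 3. For Chek2 and Fancg the vehicle difference missed the threshold (0.20, adjusted p = 0.102, and 0.35, adjusted p = 0.0573, limma), with the day 7 libraries all above the day 6 ones for both genes. The levels of the treated groups can be read beside this. For Exo1 the means were 5.31 ± 0.202 CPM (SD, n = 3) after doxorubicin and 9.02 ± 1.05 after peroxide, for Rad50 38.5 ± 6.46 and 35.4 ± 5.097, and for Chek2 18.7 ± 0.401 and 35.4 ± 1.54. Rad50 levels in the treated groups overlapped, and those of Exo1 and Chek2 did not.

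The order of the 4 group means was the same in most of the recombination class: peroxide vehicle highest, then doxorubicin vehicle, peroxide and doxorubicin. This order held for 21 of 26 recombination and Fanconi members, the exceptions being Fancc, Fancg, Fancl, Rmi1 and Fancm. It held for 3 of 12 end joining and signalling members: Xrcc6, Rif1 and Parp1. Summed over the 26 members, the level was 590 to 599 CPM in the peroxide vehicle, 383 to 416 in the doxorubicin vehicle, 259 to 276 after peroxide and 171 to 191 after doxorubicin. The 12 end joining and signalling members summed to 409 to 430, 335 to 355, 284 to 315 and 233 to 258 CPM in the same order. No 2 groups overlapped in either sum. The sum of the 24 mitosis genes had the same order of group means, at 3893, 2607, 1573 and 865 CPM. That of the 24 S phase genes did as well, at 4095, 1994, 1241 and 1203 CPM, with the treated groups overlapping. The order was thus not particular to the repair genes, and its share over all tested genes was not counted.

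Levels can be compared between genes once divided by transcript length. In the vehicle groups (mean of both), the highest members were Rad51ap1 at 25.3 CPM per kb and Xrcc6 at 24.9 CPM per kb, followed by Parp1 at 20.07, Chek2 at 17.7 and Xrcc5 at 15.6 CPM per kb. The lowest were Rmi2 at 0.214, Prkdc at 0.478 and Bard1 at 0.601 CPM per kb. The class medians were 4.28 CPM per kb for recombination and Fanconi members and 4.44 for end joining and signalling members in the vehicles. After doxorubicin they were 1.47 and 3.00, and after peroxide 2.42 and 3.28 CPM per kb. The class medians were thus about the same in the vehicles and stood apart in the treated groups, by the wider margin after doxorubicin. In the vehicles the end joining median fell in a gap between Nbn at 6.84 and Lig4 at 2.05 CPM per kb. No member of that class lay between them, so its median describes no single member.

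Other genes of these pathways were read from lists of 34 genes each. Of 34 further recombination and Fanconi genes, 14 were lower and 1 higher after doxorubicin (median -0.24), and 15 were lower and 3 higher after peroxide (median -0.60). Those with the largest change that are named here were Gen1, a resolvase (-1.52; adjusted p = 1.99e-05, limma) and Fignl1, a remodeller of the recombinase filament (-1.52; adjusted p = 3.73e-07, limma), after doxorubicin, and Fignl1 after peroxide (-1.62; adjusted p = 2.31e-07, limma). Of 34 further end joining and signalling genes, 17 were lower and 0 higher after doxorubicin (median -0.37), and 18 were lower and 2 higher after peroxide (median -0.48). The largest changes were those of Clspn (-1.30) and Topbp1 (-0.95), which carry the Atr signal to Chek1, after doxorubicin. After peroxide they were those of Timeless (-1.24), a fork protection factor, and Polq (-1.20), the polymerase of an alternative end joining route. In both lists the share that was lower, between 41.2% and 52.9%, lay above the share over all tested genes and below that of the members of the same class. After doxorubicin the further recombination list had the smaller share lower (41.2% against 50%) and the shallower median (-0.24 against -0.37). After peroxide its share was again the smaller (44.1% against 52.9%), with the deeper median (-0.60 against -0.48). The gap between the member classes thus did not extend to these lists after doxorubicin.

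**Figure D3:**
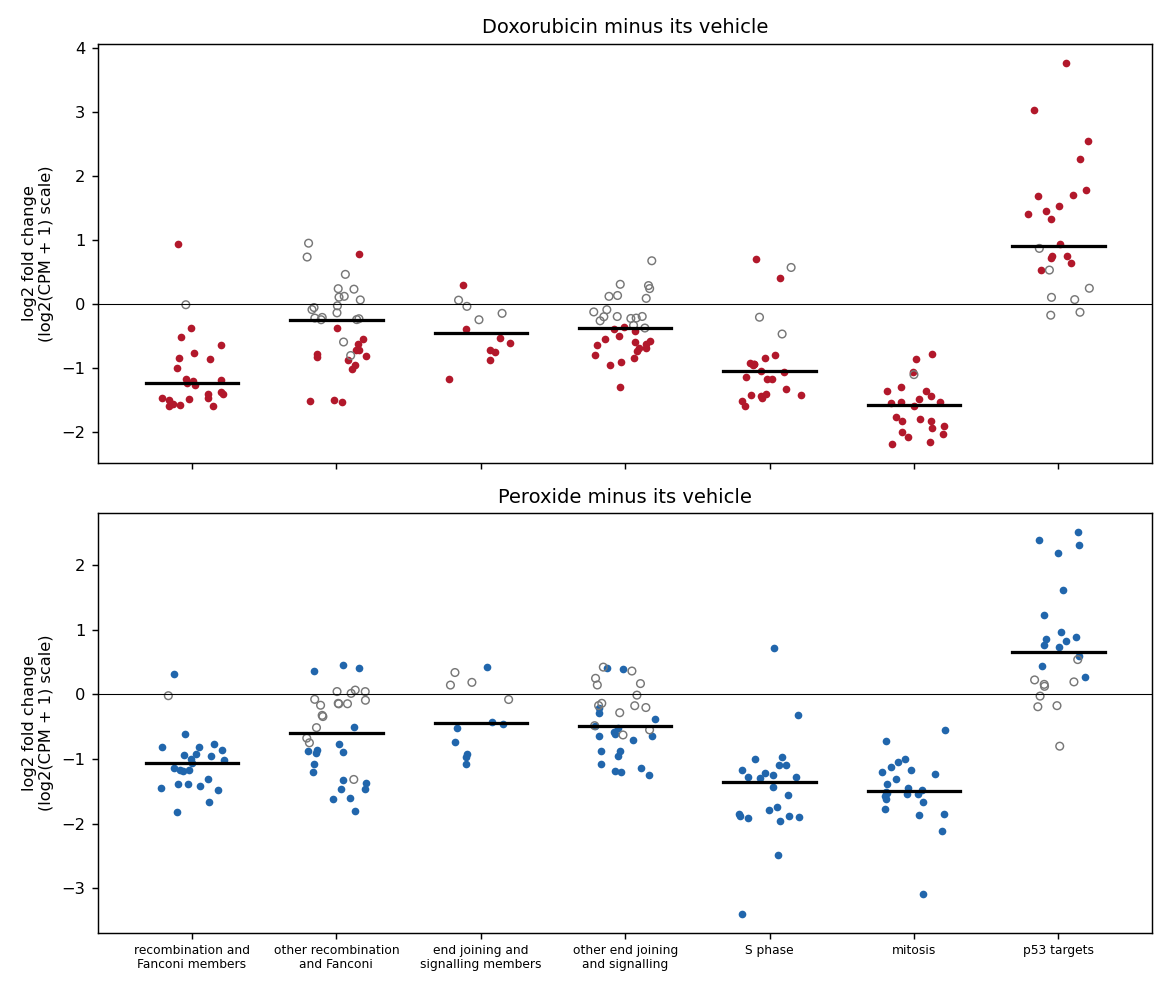
Log2 fold changes of all tested genes of each list after doxorubicin and after peroxide, with 1 point per gene (filled where the adjusted p was below 0.05, open where it was not) and a line at the list's median. The median of the 25 recombination and Fanconi members lies close to the medians of the S phase and mitosis genes. The median of the 12 end joining and signalling members lies between these and 0, with members on both sides of 0. Most p53 target genes lie above 0.

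Genes of DNA replication and of mitosis moved with the recombination members. Of 24 S phase genes, 19 were lower and 2 higher after doxorubicin (median -1.05), and 23 were lower and 1 higher after peroxide (median -1.36), with the largest changes in Lig1 (-1.59) and Mcm10 (-1.51) after doxorubicin and in Rrm2 (-3.39) and Mcm2 (-2.48) after peroxide. Of 24 mitosis genes, 23 and 24 were lower and 0 and 0 higher (medians -1.57 and -1.49), with the largest changes in Birc5 (-2.19) and Bub1 (-2.16) after doxorubicin and in Plk1 (-3.09) and Aurkb (-2.11) after peroxide. The proliferation marker Mki67 was lower by -2.002 and -1.85. Of 24 p53 target genes, 17 and 15 were higher and 0 and 0 lower (medians 0.91 and 0.66), led by Pmaip1 (3.77) and Mdm2 (3.04) after doxorubicin and by Fas (2.50) and Trp53inp1 (2.39) after peroxide. The cell cycle inhibitor Cdkn1a was higher by 2.27 and 1.23. The share of cycling cells was not measured, and its part in the levels of the repair genes was not tested.

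The summed level of the recombination members was set against that of the cycle genes in the same library. Relative to the 24 mitosis genes, the 26 recombination and Fanconi members summed to 15.5% ± 0.508 (SD, n = 3) in the doxorubicin vehicle and 20.6% ± 0.565 after doxorubicin, and 15.3% ± 0.414 in the peroxide vehicle and 16.8% ± 0.638 after peroxide. The ratio was thus higher after both treatments, and by more after doxorubicin. Relative to the 24 S phase genes the directions differed: 20.3% ± 1.51 in the doxorubicin vehicle against 14.9% ± 1.07 after doxorubicin, and 14.7% ± 1.99 in the peroxide vehicle against 21.3% ± 0.163 after peroxide. The groups did not overlap in any of these pairs. The sum of the end joining and signalling members, as a percentage of the mitosis sum, was higher in the treated groups, from 13.3% ± 0.437 to 28.0% ± 2.49 with doxorubicin and from 10.7% ± 0.329 to 19.2% ± 0.790 with peroxide. Their sum relative to the S phase sum was also higher, from 17.4% ± 0.691 to 20.1% ± 0.649 and from 10.3% ± 1.151 to 24.3% ± 0.768. These ratios are descriptions and carry no test.

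**Figure D4:**
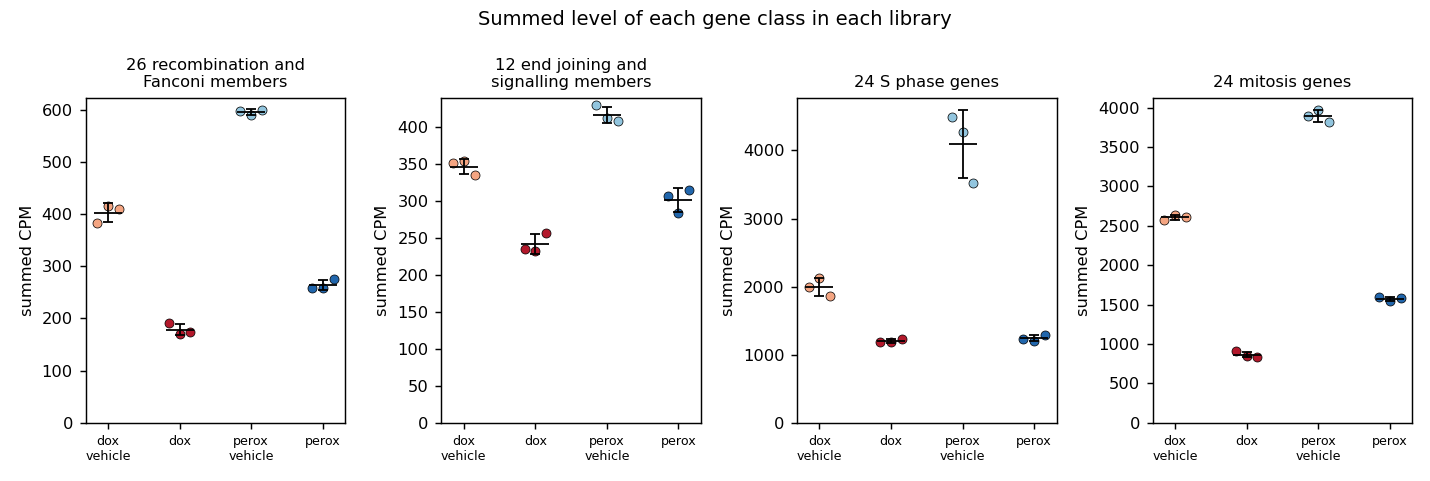
Summed CPM of the 26 recombination and Fanconi members, the 12 end joining and signalling members, 24 S phase genes and 24 mitosis genes in each library, with 1 point per library, a line at the group mean and bars of 1 SD (n = 3 per group); each axis starts at 0. All 4 sums are lower in the treated groups than in their vehicles, with the peroxide vehicle highest and, for the recombination sum, the doxorubicin group lowest at 171 to 191 CPM.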

How the data were processed

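RNA of 12 libraries (4 groups of 3) was extracted with a column kit and sequenced on an Illumina NovaSeq, per the labels' protocols. The submitters' processing notes name bcl2fastq, DRAGEN and the mm10 genome. No counter, strand setting or gene annotation is given in the sources used here. The authors deposited 1 table of CPM (counts per 1000000 reads) for the whole series. It had 55774 lines, of which 287 repeated another identifier with the same values; 55487 genes remained. The deposited CPM summed to 1000000 in each library and held fractions of reads, so whole reads were not recovered and no count model was used. Depths, about 17300000 to 37600000 reads, came from the smallest steps of the values. No column was left unmapped (0).

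Values were analysed as log2(CPM + 1), so fold changes of low genes are understated. The 13280 genes that reached 1 CPM in 3 or more libraries were fitted in 1 model of 4 groups with limma 3.58.1 (mean-variance trend, R 4.3.3). Tests were two-sided, with Benjamini-Hochberg adjustment over all tested genes and a threshold of 0.05; SE is the standard error of the log2 fold change. The fit was tested on simulated data. In that simulation few genes changed, only in the doxorubicin group, and no library stood apart, so it does not check calls in data such as these. Groups were taken from the titles. Doxorubicin and peroxide were each compared with the matching vehicle, then their effects with each other, and the vehicles with each other.

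The members and the gene lists were chosen with earlier results of these data known. Full statistics were given for the 4 steepest falls and rises called in each class and treatment, and for every member whose effects differed between treatments. For the 2 largest changes of each other list, and for Cdkn1a and Mki67, mostly the log2 fold change alone was given. Mdm2 was given after doxorubicin only. Most other members are named with their levels, ratios of means or log2 fold changes. Some list genes are not reported by name here. Coordinates are those of GENCODE M21 on mm10; 55141 identifiers matched. Alternatives were the pseudocount, the filter, the scaling, array weights, no trend, a replicate block, each experiment alone, a stricter threshold, and leaving out libraries.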

Additional observations from a re-analysis of the deposited data

Results flagged for a closer look

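6 members responded differently to doxorubicin and to peroxide by the test of the difference itself (doxorubicin effect minus peroxide effect on the log2 scale). They are 6 of 37 tested members, where 33.6% of all tested genes passed that test, so the count is no larger than over all genes. Chek2 differed by -1.09, with a fall after doxorubicin and overlapping libraries after peroxide. Xrcc5 differed by -0.86, with a fall after doxorubicin and peroxide libraries slightly above their vehicle. Fancg differed by -0.69, with a small fall and a small rise. Rad50 differed by 0.80, with a fall after peroxide alone. Fancc differed by 0.96, with a rise after doxorubicin alone. Exo1 differed by 0.42, with a deep fall after both treatments that was deeper after peroxide. The differences of Exo1 and Fancc lost their calls in 9 and 8 of the 12 leave-one-out fits. The vehicle groups also differed from each other for Exo1, Rad50 and Xrcc5, and for Fancc with a call that was lost in 7 of the 12 fits. That comparison shares its vehicle libraries with the difference of effects and is not independent of it.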

How the results depend on the processing

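No called treatment effect of a member changed sign under the alternatives tried. Of 32 members called after doxorubicin 27 kept the call in each of the up to 24 alternatives that tested them, and of 32 called after peroxide 28 did. Effects near 0 that were not called changed sign in 4 members after doxorubicin (Rmi1, Rad50, Prkdc and Lig4) and in 1 after peroxide (Fancc); without the 3 libraries that stood apart, Lig4 was at 0.05 and Fancc at 0.11. Calls near the threshold moved the counts of higher members, each of which was 1. End joining members higher after doxorubicin numbered 0 with no filter on low values, upper quartile scaling, each experiment alone, a threshold of 0.01 or without the 3 libraries that stood apart (0 to 1 when 1 library was left out). Recombination members higher after peroxide numbered 0 with no filter, median-of-ratios scaling, each experiment alone, the replicate block, a threshold of 0.01 or without the 3 libraries (0 to 1). End joining members higher after peroxide numbered 2 with a filter of 5 CPM, upper quartile scaling, no trend, array weights or without the 3 libraries (1 to 2). Counts of lower members, leaving out 1 library, ranged from 21 to 23 and from 5 to 7 after doxorubicin, and from 22 to 23 and from 5 to 7 after peroxide. Differences between the effects were called in 1 recombination member with no filter, 8 with array weights, 1 with the replicate block and 0 at a threshold of 0.01 (1 to 6, the 6 without doxorubicin replicate 1 and the 1 without doxorubicin replicate 3, peroxide replicate 1, or peroxide vehicle replicate 1 or 2), and in 5 end joining members with array weights (3 to 3). Between the vehicles, lower recombination members numbered 12 at a threshold of 0.01 (13 to 20), and lower end joining members 3 with no filter and 2 at 0.01 (3 to 5, the 3 without doxorubicin vehicle replicate 2 or 3 or peroxide vehicle replicate 1 or 2). The recombination median after doxorubicin was -1.42 and -1.08 with pseudocounts of 0.1 and 2, and -1.34 with array weights (-1.33 to -1.20 leaving out 1 library). After peroxide it was -1.15 and -0.99 with those pseudocounts and -1.001 with upper quartile scaling (-1.11 to -1.05). Without the 3 libraries the end joining median after peroxide was -0.34 (-0.47 to -0.34) and the gap between the medians 0.71 (0.60 to 0.72); after doxorubicin these ranged from -0.53 to -0.38 and from 0.67 to 0.92. The cause of these shifts was not tested. Upper quartile scaling moved the all-gene median of the difference from -0.07 to -0.14. Deviations of same-numbered libraries from their group means correlated with mixed sign. The values were -0.31, 0.19 and -0.28 in the doxorubicin experiment and 0.14, 0.03 and -0.24 in the peroxide one. No pairing by replicate number was seen, and none was used in the main fit, but 3 libraries per group cannot exclude one. Low level limits Rmi2, which did not reach the filter.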
